A study of Homo sapiens with 10 samples.

Results

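The mitochondrial ribosomal proteins were taken as the rows of the deposited count table whose symbol starts with MRPL or MRPS followed by a number. These were 78 of the 22626 rows, 49 named for the large subunit (MRPL) and 29 for the small subunit (MRPS), all protein-coding. ARPE-19 cells, an established line of human retinal pigment epithelium, had been kept for 48 h before bulk RNA sequencing. The control group (n = 5, MG_1 to MG_5) received medium with 5.5 mM glucose and 32 mM mannitol, a sugar alcohol added for osmotic balance. The high glucose group (n = 5, HG_1 to HG_5) received medium with 37.5 mM glucose, and no mannitol is named for it. The labels give the high glucose libraries letters, so the column numbers HG_1 to HG_5 serve only as names. Neither group carried a transgene or deletion in the labels. The labels do not say whether the libraries came from separate cultures, and the methods speak of independent experiments only for the data in general. P-values therefore measure the spread between these libraries.

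Mitochondria carry their own ribosome, which translates the few membrane-bound subunits of oxidative phosphorylation that mitochondrial DNA encodes. All of its proteins are encoded in the nucleus, made in the cytosol and imported. Its large subunit forms peptide bonds and its small subunit decodes the mRNA, and inherited defects in either cause combined deficiency of the respiratory complexes. The retinal pigment epithelium relies strongly on oxidative metabolism in its mitochondria.

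The libraries held between 32448991 and 45864176 counts, and all 78 genes passed the filter on low counts, with at least 110 counts in every library. MG_2 and HG_1 stood apart: their log2 levels rose by 0.17 and 0.19 for every 10 points of GC content of a gene. This slope was -0.04 to -0.01 in the other control and -0.09 to -0.03 in the other high glucose libraries. It was lower in HG_2, HG_4 and HG_5 than in any control library, so leaving out MG_2 and HG_1 did not level it between groups. For every doubling of transcript length the log2 level changed by -0.12 in MG_2 and -0.16 in HG_1, against -0.01 to 0.07 in the other 8 libraries. The counts, the medians and the called genes are therefore also given after a correction for GC content and transcript length, and without these 2 libraries. Of 13 retinal pigment epithelium markers, TTR had 0 counts in all libraries, RPE65 0 to 6 and TYR 0 to 34, and BEST1 ranged from 24 to 18223. KRT8 (log2 fold change -0.62), KRT18 (-0.68) and PMEL (-0.72) were lower in high glucose in edgeR's quasi-likelihood test, as was the fibroblast collagen COL1A1 (-1.33). Of the 10 markers tested 9 were below 0 (median -0.26), and after the GC and length correction 7 were called lower, with OTX2, MITF, RLBP1 and BEST1 added. PECAM1, GFAP and PTPRC, markers of other cell types, had at most 7 counts. The part of these differences in the results below was not tested, and in bulk RNA fewer cells of a type and less RNA per cell cannot be told apart.

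Promoters are shown for genes whose levels are described below, so that their sequence can be read beside their values, and shared regulation was not tested. Of the 78 genes, 69 had an entry in the RefSeq promoter table (GRCh38.p14), which runs from 250 bases before to 50 bases after a gene's start. That start is the one used for the promoters and can lie inside the GENCODE gene. The MRPS22 window lies far inside its gene, which begins at 139005806. The MRPS6 gene begins at 34073224, and its window holds the start of SLC5A3 (34073570), an overlapping gene described below. Capitals mark the ETS core CCGGAAG, the core of the sites bound by the GABP factor, and the YY1 core AAGATGG, each on either strand. MRPS22 (chr3:139343744-139344043, + strand), MRPL30 (chr2:99180934-99181233, + strand) and MRPS16 (chr10:73252595-73252894, - strand) hold at least 1 of them, and MRPS35 (chr12:27710582-27710881, + strand) and MRPS6 (chr21:34073328-34073627, + strand) hold neither.
MRPS22: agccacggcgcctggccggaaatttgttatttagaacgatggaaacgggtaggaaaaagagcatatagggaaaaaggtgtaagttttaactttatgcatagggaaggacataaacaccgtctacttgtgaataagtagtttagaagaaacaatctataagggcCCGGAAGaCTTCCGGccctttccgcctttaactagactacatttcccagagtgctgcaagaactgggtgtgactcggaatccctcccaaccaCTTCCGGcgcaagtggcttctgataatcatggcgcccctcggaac
MRPL30: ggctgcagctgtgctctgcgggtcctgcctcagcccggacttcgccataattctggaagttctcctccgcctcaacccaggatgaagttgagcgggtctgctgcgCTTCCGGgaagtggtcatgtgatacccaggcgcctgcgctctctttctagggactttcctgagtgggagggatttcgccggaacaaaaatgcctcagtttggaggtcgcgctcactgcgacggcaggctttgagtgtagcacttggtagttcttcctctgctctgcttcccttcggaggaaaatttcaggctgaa
MRPS16: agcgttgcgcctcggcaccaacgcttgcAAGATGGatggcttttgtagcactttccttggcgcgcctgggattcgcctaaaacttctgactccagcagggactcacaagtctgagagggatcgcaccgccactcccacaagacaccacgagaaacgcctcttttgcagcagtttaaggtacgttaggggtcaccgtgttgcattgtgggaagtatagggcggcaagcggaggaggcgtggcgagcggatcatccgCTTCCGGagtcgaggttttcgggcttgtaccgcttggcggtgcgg
MRPS35: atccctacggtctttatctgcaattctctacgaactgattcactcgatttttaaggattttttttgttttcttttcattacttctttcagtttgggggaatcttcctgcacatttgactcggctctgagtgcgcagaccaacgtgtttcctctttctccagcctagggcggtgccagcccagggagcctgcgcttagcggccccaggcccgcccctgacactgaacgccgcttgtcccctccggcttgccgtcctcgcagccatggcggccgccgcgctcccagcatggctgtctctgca
MRPS6: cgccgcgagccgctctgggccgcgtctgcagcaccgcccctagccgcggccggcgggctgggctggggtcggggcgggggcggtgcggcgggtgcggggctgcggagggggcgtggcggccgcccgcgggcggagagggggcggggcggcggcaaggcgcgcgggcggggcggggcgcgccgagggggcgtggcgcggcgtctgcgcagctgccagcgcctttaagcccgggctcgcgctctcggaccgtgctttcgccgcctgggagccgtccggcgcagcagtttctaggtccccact

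The MRPS22 promoter held 3 ETS cores, whose first bases lie at positions -87, -79 and 6 from the start. MRPL30 held 1 ETS core, beginning at position -145. MRPS16 held an ETS core at position 6 and a YY1 core at position -222. CCGGAAG was present in 29 of the 69 matched promoters (42.0%), against 10.3% of all 35116 promoters of this length. AAGATGG was present in 23 of 69 (33.3%), against 5.84% of all promoters. The NRF1 core GCATGC was present in 9 of 69 (13.04%) against 7.22%, and the E-box CACGTG in 6 of 69 (8.70%) against 7.26%. The ETS core was about as common in large subunit (40.5%) as in small subunit promoters (44.4%). Among the genes that rose in high glucose, 4 of the 9 with an entry held the ETS core, 2 the YY1 core, 1 the E-box and 0 the NRF1 core. These are matches of letters and show no binding.

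Most mitochondrial ribosomal protein genes were slightly higher in high glucose, and few of them passed the test. In edgeR's quasi-likelihood test 11 of 78 rose (14.1%) and 1 fell (1.28%) at an adjusted p under 0.05, while over all 14936 rows tested 7.62% rose and 7.80% fell. With 1 library left out the number that rose ran from 6 without MG_1 or MG_5 and 7 without MG_3 or HG_4 to 17 without MG_2, when 824, 848, 893, 882 and 1264 of all rows were called higher in that order of libraries. The 12 called genes together are 15.4% of the 78, the same share as the 15.4% of all rows called in either direction. The log2 fold change was above 0 in 65 of 78 genes (83.3%), against 50.2% of all rows, and its median was 0.13 against 0.00 over all rows. After the correction 59 genes were above 0 (median 0.10), and without MG_2 and HG_1 64 were (median 0.12). Without HG_1 alone, 57 of 78 were above 0 (73.1%) and the median was 0.08. The plot of changes by gene shows this shift in both subunits, with few filled points. After the correction for GC content and length, 14 rose and 5 fell, with 14.5% and 14.9% of all rows called higher and lower (29.4% in all). Without MG_2 and HG_1, 21 rose and 1 fell, with 13.3% and 13.8% of all rows called (27.0% in all). DESeq2 gave 16 higher and 1 lower, with 10.2% and 10.7% of all rows called (20.9% in all). Because the genes also rose and fell together between libraries of the same group, they are not independent observations of the treatment.

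**Figure D1:**
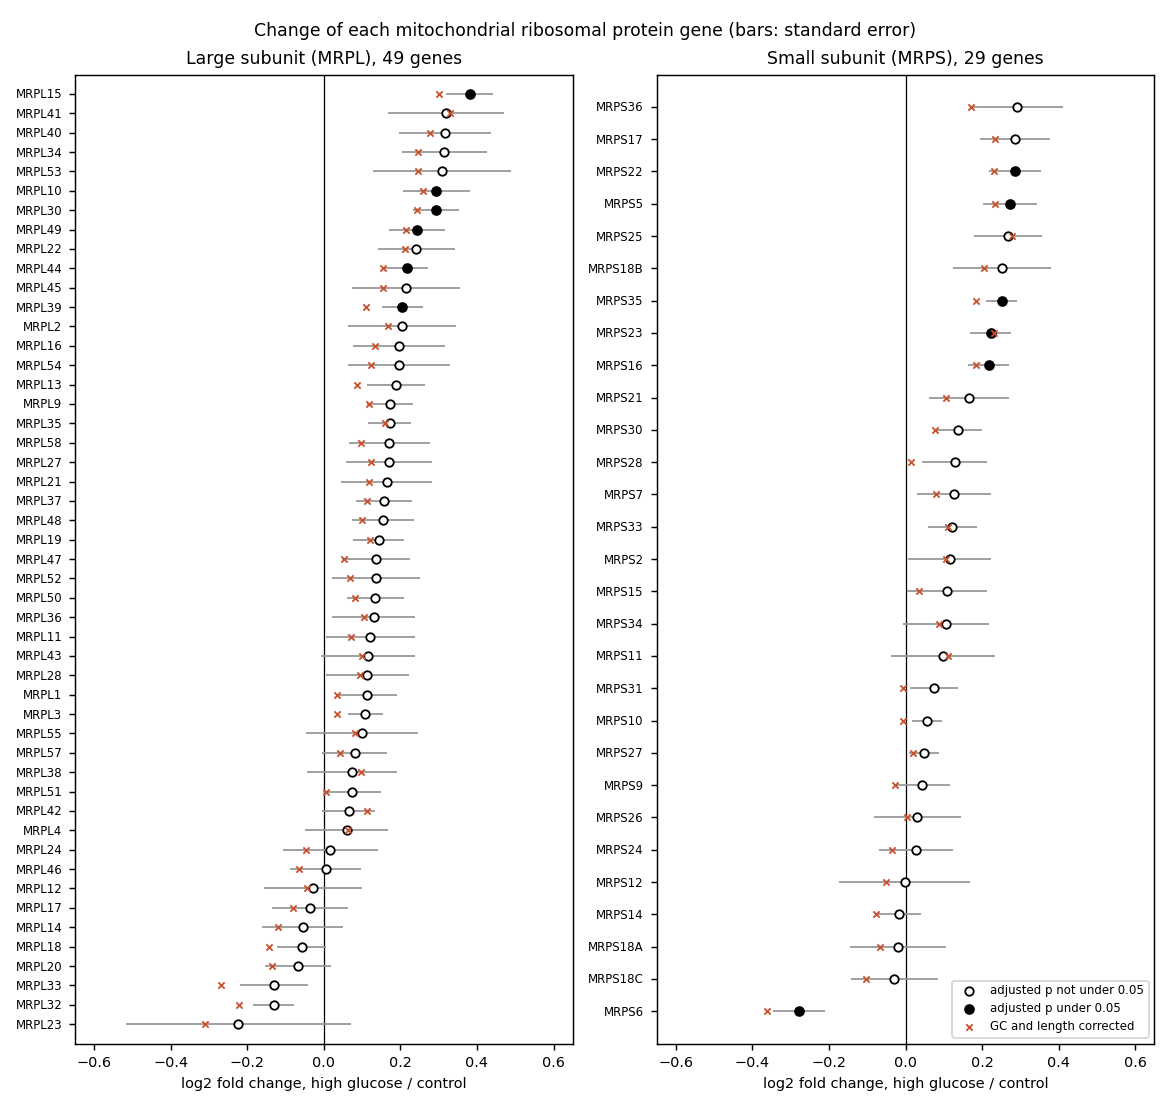
Log2 fold change (high glucose over control, n = 5 each) of the 49 large and 29 small subunit genes, with bars for the standard error, filled points for an adjusted p under 0.05 and crosses for the value after GC and length correction. Points run from -0.22 to 0.38 in the large and from -0.28 to 0.29 in the small subunit, and MRPS6 is the only filled point below 0.

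In the large subunit, 6 of 49 genes rose and 0 fell, beside 7.62% and 7.80% of all rows. Of the 49, 14 had an unadjusted p under 0.05, a threshold that 28.5% of all rows passed. MRPL15 (chr8:54135210-54147901), a protein of the conserved core, had the largest log2 fold change in this fit. After the correction MRPL41 (0.33) rose more, and MRPS6 (-0.36) and MRPL23 (-0.31) moved further from 0. Without MG_2 and HG_1, MRPL23 and MRPS36 moved more, as did MRPL23 without HG_1 alone. Another large subunit gene rose more without MG_1 (0.37). The CPM of MRPL15 (counts relative to the TMM-normalized library size) was 68.1, 80.8, 72.2, 71.3 and 66.7 in MG_1 to MG_5 and 101, 87.9, 92.1, 94.8 and 91.4 in HG_1 to HG_5. Every high glucose library lay above every control library, and MG_2 and HG_1 were the highest of their groups. The log2 fold change was 0.38 ± 0.06 (SE), a 1.30-fold rise (adjusted p = 0.00199), and it was 0.40 without MG_2 and HG_1 and 0.30 after the correction.

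MRPL30 (chr2:99181079-99197626), another conserved core protein, had a CPM of 46.3, 41.9, 43.7, 47.2 and 47.7 in the control libraries and 49.9, 55.7, 55.5, 60.2 and 56.5 in the high glucose libraries. The groups did not overlap, and here MG_2 and HG_1 were the lowest of their groups. MRPL30 rose by 0.29 ± 0.06 on the log2 scale (adjusted p = 0.00793), by 0.30 without these libraries and by 0.24 after the correction. Overlapping loci share 18.6% of the 100-base windows of its transcript, so part of these reads could belong to them. Its promoter, printed above, held a single ETS core.

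MRPL10, which forms the base of the stalk that recruits translation factors, had a CPM of 33.8, 38.1, 33.7, 34.2 and 36.1 in the control and 53.5, 40.5, 39.8, 39.3 and 42.6 in the high glucose libraries. The groups did not overlap, and HG_1 lay far above the rest. The rise in log2 was 0.29 ± 0.09 (adjusted p = 0.0436), without MG_2 and HG_1 it was 0.24 (adjusted p = 0.00258), and after the correction it was 0.26. MRPL39, a protein of the mitochondrial ribosome with a fold related to a tRNA synthetase, had a CPM of 19.1, 20.4, 19.3, 19.0 and 19.9 against 22.3, 20.8, 22.9, 23.4 and 23.3. The groups did not overlap, but HG_2 was only just above MG_2. Its log2 fold change was 0.21 ± 0.05 (adjusted p = 0.0252) and 0.23 without MG_2 and HG_1, and after the GC and length correction it was 0.11 (adjusted p = 0.0987), no longer past the threshold.

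MRPL44, which has a fold like that of an RNase III enzyme, had a CPM of 42.8, 48.6, 44.0, 45.8 and 44.5 in the control and 53.3, 48.0, 52.3, 56.9 and 51.5 in the high glucose libraries. MG_2 lay above HG_2, the sole overlap between the groups. Its rise in log2 was 0.22 ± 0.06 (adjusted p = 0.0251), 0.24 without MG_2 and HG_1 and 0.15 after the correction. MRPL49, a mitochondria-specific protein, had a CPM of 82.6, 103, 86.3, 91.5 and 90.2 against 122, 110, 103, 105 and 97.6. MG_2 lay within the range of the high glucose libraries, and the log2 fold change was 0.24 ± 0.07 (adjusted p = 0.0477), 0.24 without MG_2 and HG_1 and 0.22 after the correction. Its gene lies opposite FAU and SYVN1, and the sources do not say whether the libraries kept strand.

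The calls of 4 large subunit genes depended on which library was left out. MRPL10 passed only without MG_2, HG_1 or HG_4 (log2 fold change 0.21 to 0.33 and adjusted p up to 0.0973 over the 10 fits without 1 library). MRPL39 passed only without MG_2, HG_1 or HG_2 (0.19 to 0.23, up to 0.0655), and MRPL49 only without MG_2 or HG_5 (0.20 to 0.29, up to 0.11). MRPL44 was lost without MG_1, MG_3, MG_5, HG_3 or HG_4 (0.19 to 0.25, up to 0.0629). MRPL15 and MRPL30 passed in all 10 fits, with adjusted p up to 0.00699 and 0.0246.

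In the small subunit, 5 of 29 genes rose and 1 fell, beside 7.62% and 7.80% of all rows. Of the 29, 10 had an unadjusted p under 0.05, beside the same 28.5% of all rows. MRPS35 (chr12:27710773-27756295), a mitochondria-specific protein, varied little between libraries. Its CPM was 69.1, 70.7, 68.5, 73.3 and 71.4 in the control and 81.0, 83.0, 88.6, 83.3 and 84.2 in the high glucose libraries. MG_2 and HG_1 did not stand out, and the groups did not overlap. The log2 fold change was 0.25 ± 0.04 (adjusted p = 0.00218), 0.27 without these libraries and 0.18 after the correction.

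MRPS22 (chr3:139005806-139357223), a mitochondria-specific protein in which inherited defects cause combined respiratory chain deficiency, had a CPM of 31.2, 35.6, 33.2, 30.9 and 28.6 against 37.1, 36.8, 37.7, 41.3 and 41.7. The lowest high glucose library, HG_2, lay just above the highest control library, MG_2. MRPS22 rose by 0.29 ± 0.07 in log2 (adjusted p = 0.0173), by 0.35 without MG_2 and HG_1 and by 0.23 after the correction. In limma on log2(FPKM + 1) the value was 0.25 (adjusted p = 0.0746). This is the gene with 3 ETS cores in its promoter, and 13.2% of its transcript windows are shared with PRR23A.

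MRPS16 (chr10:73248843-73252693), a conserved protein that is likewise a disease gene, had a CPM of 102, 112, 106, 114 and 111 in the control and 140, 121, 120, 124 and 129 in the high glucose libraries. The groups did not overlap, and HG_1 was the highest. MRPS16 rose by 0.22 ± 0.05 in log2 (adjusted p = 0.0187), and by 0.19 without MG_2 and HG_1 and 0.18 after the correction. Its transcript shares 11.7% of its windows with the antisense gene DNAJC9-AS1.

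MRPS5 (chr2:95087207-95149434), which lies near the entry of the mRNA channel, had a CPM of 39.0, 48.6, 45.1, 43.3 and 41.7 against 57.6, 48.7, 50.8, 55.1 and 50.9. The groups were separated by HG_2 lying just above MG_2. MRPS5 rose by 0.27 ± 0.07 in log2 (adjusted p = 0.0230), and by 0.28 without MG_2 and HG_1 and 0.23 after the correction. The call was lost without MG_1, MG_5 or HG_4 (0.24 to 0.32 and adjusted p up to 0.06 over the 10 fits without 1 library). MRPS23 (chr17:57834781-57850056), also mitochondria-specific, had a CPM of 45.7, 53.3, 49.03, 46.7 and 49.3 against 60.6, 55.5, 55.1, 55.4 and 58.2. The groups did not overlap, and the log2 fold change was 0.22 ± 0.05 (adjusted p = 0.0179). It was 0.23 without MG_2 and HG_1, 0.23 after the correction (adjusted p = 0.0864) and 0.11 in limma on log2(FPKM + 1) (adjusted p = 0.385), so its call rests on the counts without the correction.

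MRPS6 (chr21:34073224-34143034), a conserved small subunit protein, was the only member that fell in this fit. Its CPM was 72.8, 72.0, 70.8, 64.3 and 61.5 in the control and 63.3, 53.9, 55.7, 56.2 and 52.1 in the high glucose libraries. HG_1 lay above MG_5, and the other 4 high glucose libraries lay below every control library. The log2 fold change was -0.28 ± 0.07 (adjusted p = 0.0186), -0.30 without MG_2 and HG_1 and -0.36 after the correction. It passed in all 10 fits without 1 library, with adjusted p up to 0.0493.

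The MRPS6 locus also holds SLC5A3 (chr21:34073570-34106262), the sodium-dependent transporter of the osmolyte myo-inositol, on the same strand. Together with a further transcript there, SLC5A3 shares 24.4% of the 100-base windows of the MRPS6 transcript. SLC5A3 had a CPM of 144, 77.6, 117, 107 and 108 in the control and 53.6, 80.5, 78.0, 90.6 and 87.8 in the high glucose libraries. MG_2 lay among the high glucose libraries and HG_1 was the lowest, which was not the order of MRPS6. For SLC5A3 the log2 fold change was -0.50 ± 0.17 (adjusted p = 0.0709), and -0.46 after the correction (adjusted p = 0.0008). How many of the MRPS6 counts came from SLC5A3 reads was not tested. The groups also differed in mannitol, which cannot be told apart from glucose in this design.

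**Figure D2:**
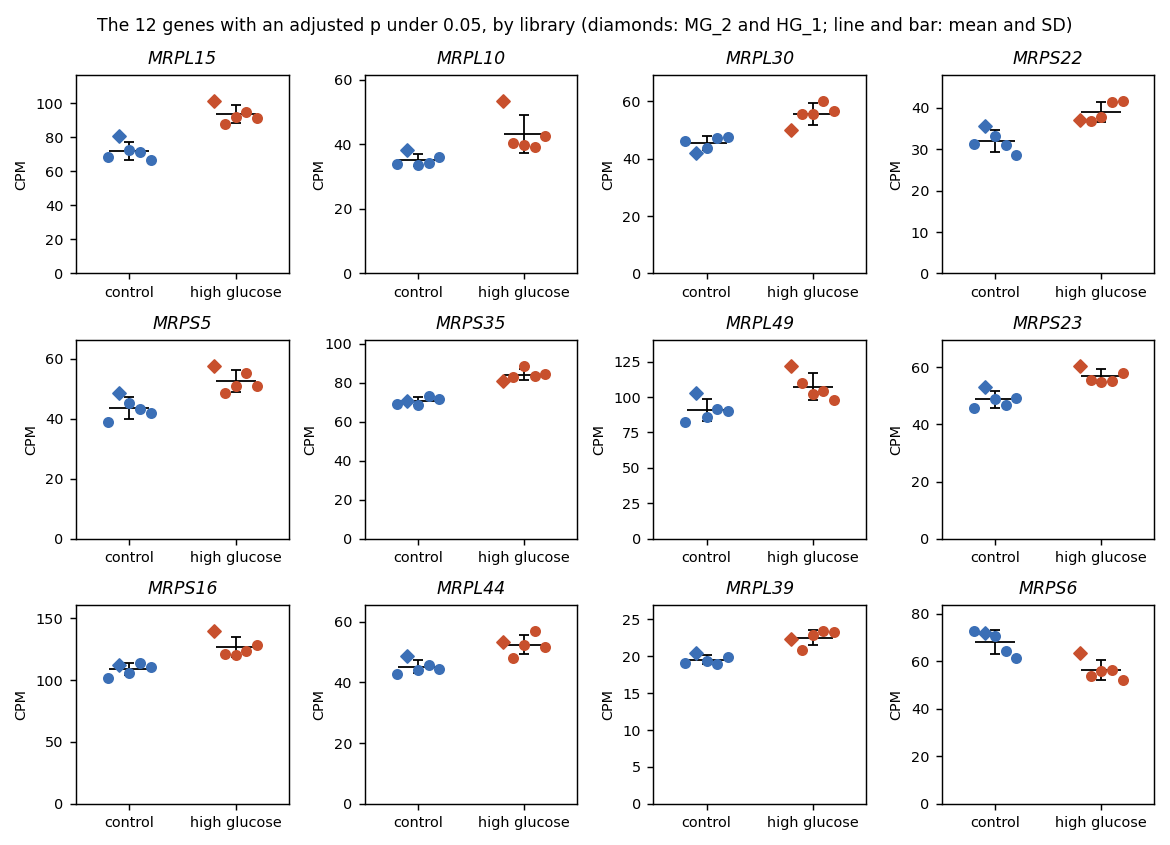
CPM per library (vertical axes from 0) of the 12 genes with an adjusted p under 0.05, ordered by log2 fold change, for control and high glucose (5 libraries each, mean with SD bars, diamonds for MG_2 and HG_1). Control and high glucose points do not overlap in 9 genes and overlap in MRPL44, MRPL49 and MRPS6.

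Control and high glucose libraries did not overlap in 9 of 78 genes, all higher in high glucose, while over all rows tested 6.74% were separated upward and 6.91% downward. These were MRPL10, MRPL15, MRPL30 and MRPL39 in the large and MRPS5, MRPS16, MRPS22, MRPS23 and MRPS35 in the small subunit. The other 69 genes overlapped.

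The large and the small subunit had similar medians, whose difference was not tested. The median log2 fold change was 0.14 over the 49 large subunit genes (quartiles 0.07 and 0.20) and 0.12 over the 29 small subunit genes (quartiles 0.04 and 0.22), and 41 of 49 and 24 of 29 were above 0. The small subunit median was 0.05 without HG_1, 0.07 without MG_1 and 0.18 without MG_2. Called genes made up 12.2% upward and 0.0% downward in the large and 17.2% upward and 3.45% downward in the small subunit. Over all rows tested 50.2% were above 0, 7.62% were called higher and 7.80% lower. MRPS18A and MRPS30 carry small subunit names but sit in the large subunit, and MRPS36 is a subunit of the α-ketoglutarate dehydrogenase complex. With these assigned by structure the medians were 0.14 (51 genes) and 0.11 (26 genes). After the GC and length correction the medians by symbol were 0.10 and 0.08, and without MG_2 and HG_1 they were 0.14 and 0.09.

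The summed CPM of the large subunit genes was 1824, 2223, 1868, 1930 and 1881 in MG_1 to MG_5 and 2474, 1985, 2049, 2052 and 2079 in HG_1 to HG_5. That of the small subunit genes was 1191, 1403, 1253, 1258 and 1217 against 1560, 1285, 1349, 1321 and 1360. MG_2 and HG_1 were the highest of their groups in both sums. MG_2 lay above 4 of the 5 high glucose libraries, so the groups overlapped. Without these libraries the sums ran from 1824 to 1930 in control and 1985 to 2079 in high glucose for the large subunit, and from 1191 to 1258 and 1285 to 1360 for the small subunit. The ratio of the large to the small sum was 1.54 ± 0.03 (SD, n = 5) in control and 1.55 ± 0.03 (n = 5) in high glucose, a difference smaller than the SD. All 78 genes together took 0.319% ± 0.020 of the counts in control and 0.351% ± 0.022 in high glucose.

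For each library the median over genes of the log2 CPM, each gene centred on its mean over the libraries, gives the same picture on a scale where every gene weighs alike. For the large subunit this median was -0.14, 0.17, -0.12, -0.07 and -0.11 in control and 0.30, -0.03, 0.02, 0.02 and 0.03 in high glucose. After the correction it was -0.07, 0.05, -0.07, -0.04 and -0.05 against 0.11, -0.00043, 0.01, 0.04 and 0.06. The correction drew MG_2 and HG_1 toward their groups, although both remained the highest. The plot of library medians shows large and small subunit beside each other in each library, differing by -0.04 to 0.05.

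**Figure D3:**
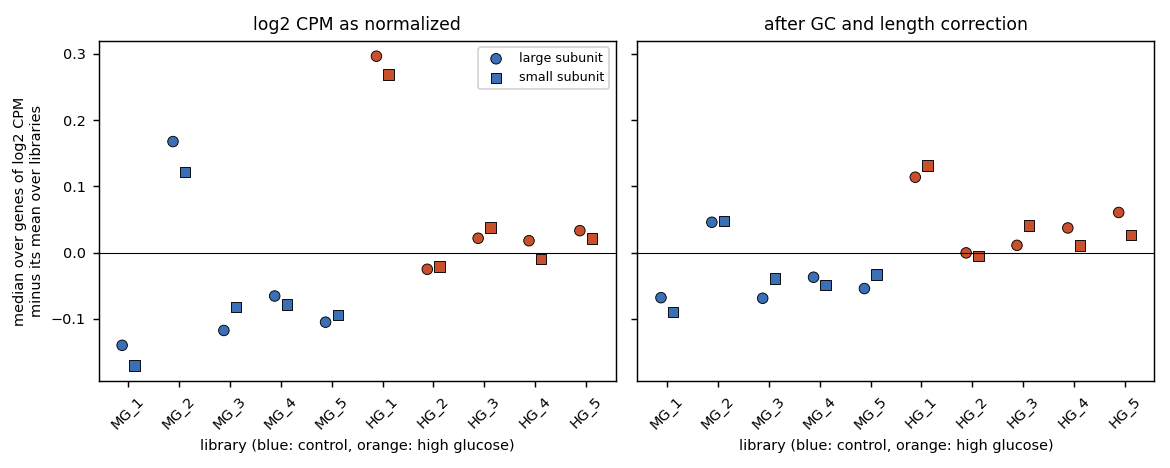
Median over the genes of each subunit (circles large, squares small) of log2 CPM minus each gene's mean over the 10 libraries, by library (blue control, orange high glucose), as normalized and after GC and length correction. MG_2 and HG_1 are the highest of their groups in both panels, and the other 4 high glucose libraries lie above the other 4 control libraries.

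Of 21 members named for their roles 5 were called, all higher: MRPL10, MRPL44, MRPS5, MRPS16 and MRPS22, described above. Of all 78 genes 14.1% rose, and 7.62% of all rows were called higher. The members with roles were chosen with earlier results of these data known. In the stalk, MRPL11 (log2 fold change 0.12, adjusted p = 0.558) and MRPL12 (-0.03, adjusted p = 0.920) did not pass the test beside MRPL10. MRPL12, which contacts the translation factors, had a CPM of 55.2, 83.8, 64.1, 64.6 and 61.5 in control and 83.4, 58.8, 58.3, 58.9 and 63.5 in high glucose. MG_2 and HG_1 alone exceeded 80, and 64.8% of its transcript windows are shared with the overlapping gene AC139530.2. Around the peptide exit tunnel, MRPL4 (0.06, adjusted p = 0.784) and MRPL45 (0.22, adjusted p = 0.363), which helps hold the ribosome at the inner membrane, did not pass.

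MRPL3 (0.11, adjusted p = 0.152), a core protein near the peptidyl transferase centre, MRPL16 (0.20, adjusted p = 0.330) and MRPL58 (0.17, adjusted p = 0.329), a peptidyl-tRNA hydrolase built into the ribosome, were likewise above 0 without passing. In the small subunit, MRPS12 of the decoding centre had -0.0024 (adjusted p = 0.995). MRPS2 (0.12, adjusted p = 0.548), MRPS7 (0.13, adjusted p = 0.451) and the pentatricopeptide repeat protein MRPS27 (0.05, adjusted p = 0.473) were above 0. Of the paralogues MRPS18A, MRPS18B and MRPS18C, the values were -0.02, 0.25 and -0.03, none past the threshold. MRPS30 had 0.14 (adjusted p = 0.167) and MRPS36 0.29 (adjusted p = 0.142). Without MG_2 and HG_1, MRPS36 was at 0.40 (adjusted p = 0.0134), the largest rise of the 78 in that fit, and after the correction it was at 0.17 (adjusted p = 0.383).

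Some genes changed their call with the processing. After the correction MRPL41 (0.33, adjusted p = 0.000669), MRPL40 (0.28), MRPL34 (0.25), MRPS17 (0.23) and MRPL37 (0.11) were also called higher. Without MG_2 and HG_1, the 10 further genes called higher were MRPS36, MRPL34, MRPL22, MRPL41, MRPS25, MRPL40, MRPL13, MRPL9, MRPL27 and MRPL37, with log2 fold changes from 0.40 (MRPS36) down to 0.15 (MRPL37). After the correction MRPL33 (-0.27, adjusted p = 0.0061), MRPL32 (-0.22, adjusted p = 0.013), MRPL18 (-0.14, adjusted p = 0.0297) and MRPL14 (-0.12, adjusted p = 0.0378) were called lower beside MRPS6. MRPL41 is the clearest case: its GC content is 71.9%, and its CPM was 31.0, 44.3, 32.9, 32.0 and 32.5 in control and 60.1, 33.7, 40.9, 40.2 and 40.8 in high glucose. MG_2 exceeded every high glucose library but HG_1, and before the correction the adjusted p was 0.196.

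The genes of both subunits rose and fell together between libraries of one group. With group means removed, the mean Pearson r over pairs of genes across the 10 libraries was 0.43 within the large subunit, 0.41 within the small and 0.42 between them, against 0.00 over all rows tested. After the correction the same means were 0.10, 0.11 and 0.11. The values of each pair share library, depth and any effect of base composition or transcript length. Median GC content was 48.9% for the members and 48.5% for all rows, and median transcript length was 1516 and 3430 bases. The within-group SD of log2 CPM increased with GC content across the 78 genes (r = 0.58, and -0.22 after the correction), while the log2 fold change did not follow it (r = -0.08). These correlations are across genes, which are not independent replicates.

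The spread differed widely between members. MRPS27, MRPS10 and MRPS35 had the smallest within-group SD of log2 CPM, 0.040, 0.041 and 0.043. MRPL23 had the largest, 0.51, followed by MRPL53 (0.32), MRPS12 (0.30) and MRPL41 (0.26), and the SD of MRPL41 was 0.087 after the correction. MRPL23 had a CPM of 31.0, 44.9, 19.9, 32.6 and 32.7 in control and 51.6, 19.6, 20.7, 19.6 and 26.5 in high glucose. Its groups overlapped, and its log2 fold change of -0.22 ± 0.29 (adjusted p = 0.691) was the lowest of the large subunit. MRPL23 was at -0.43 without MG_2 and HG_1 (adjusted p = 0.0893) and at -0.57 without HG_1 alone. Of all 78 genes, 20 shared over 10% of their transcript windows with another gene, among them MRPS24 (78.7%, with the read-through gene URGCP-MRPS24), and 26 overlapped a coding gene on the opposite strand.

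Levels between genes were compared in FPKM, which divides a count by transcript length and library size. Mean FPKM over the 10 libraries had a median of 30.02 in the large and 23.5 in the small subunit. MRPL51 was highest at 101 in control and 107 in high glucose, followed by MRPS24 (82.6 and 84.8) and MRPL37 (70.2 and 78.9). MRPS18B (2.57 and 3.08), MRPL42 (2.89 and 2.88) and MRPL50 (6.03 and 6.68) were lowest. MRPL51 ranged from 95.2 to 114 over the control libraries and from 101 to 118 in high glucose, and MRPS24 from 70.8 to 95.2 and from 77.9 to 97.3, so these neighbours did not overlap in high glucose and met in control. MRPS18B and MRPL42 overlapped in level, from 2.19 to 3.48 and from 2.25 to 3.48. The longest of these transcripts, that of MRPL42, has 15582 bases in GENCODE, and the gene had 41.2 CPM in control. The length behind the deposited FPKM is not given in the sources used here. The plot of levels shows the whole order in both groups.

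**Figure D4:**
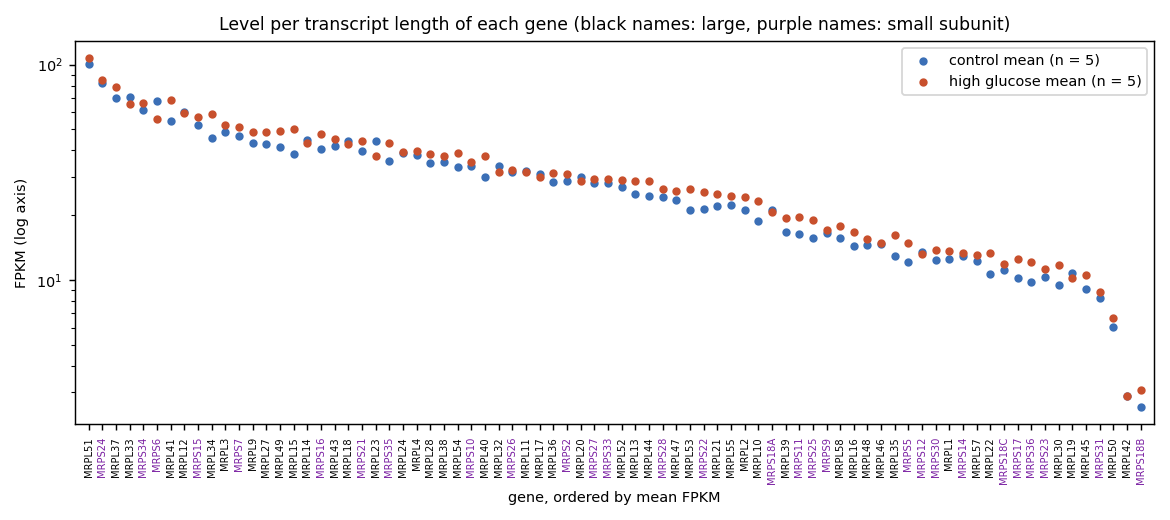
Mean FPKM (log axis) of the 78 genes in control (blue) and high glucose (orange), n = 5 each, ordered by the mean over all libraries. Most genes lie between about 10 and 100 FPKM, and the blue and orange points of a gene lie close together compared with the range across genes.

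Other parts of the mitochondrial translation machinery were counted beside the members. A list of 5 ribosomal proteins under other symbols and the ribosome-bound insertase OXA1L was above 0 in all 6 genes (median log2 fold change 0.16), and OXA1L and PTCD3 rose. Over all rows tested 50.2% were above 0 and 7.62% were called higher. OXA1L, which receives nascent chains at the inner membrane, had a CPM of 110.6 to 124.4 in control and 132.2 to 154.8 in high glucose (0.26 ± 0.05, adjusted p = 0.00891). PTCD3, a small subunit protein at the mRNA entry, rose by 0.20 ± 0.06 (adjusted p = 0.0412), and the small subunit GTP-binding protein DAP3 had 0.04 (adjusted p = 0.709). Among 31 assembly factors 4 rose and 0 fell (median 0.10), beside 7.62% of all rows called higher. These were TFB1M (0.38, adjusted p = 0.0231), the methyltransferase of the small subunit rRNA, FASTKD2 (0.33, adjusted p = 0.0124), MTRES1 (0.32, adjusted p = 0.0450) and NSUN4 (0.25, adjusted p = 0.0160), and after the correction 6 rose and 1 fell, beside 14.5% and 14.9% of all rows. Of 15 translation factors 13 were above 0 (median 0.12), and the initiation factor MTIF2 rose (0.29, adjusted p = 0.00596). After the correction 4 rose, MTIF2 with the elongation factor GFM1, GUF1 and the mRNA-binding protein LRPPRC, in a fit that called 14.5% of all rows higher.

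Among 13 regulators of mitochondrial gene expression the median was 0.01, with 3 higher and 1 lower, beside 7.62% and 7.80% of all rows. PPARGC1A, the coactivator PGC-1α, had a CPM of 24.02 ± 5.47 (SD, n = 5) in control and 47.3 ± 4.82 (n = 5) in high glucose. The groups did not overlap (17.0 to 31.7 against 38.9 to 50.1), and the log2 fold change was 0.98 ± 0.15 (adjusted p = 0.00142). ESRRA, its nuclear receptor partner, rose from 57.4 ± 6.14 to 77.2 ± 11.0 CPM (0.43 ± 0.10, adjusted p = 0.0174). TFB2M, a factor of mitochondrial transcription initiation, rose by 0.25 (adjusted p = 0.0195). NRF1, a transcription factor of nuclear genes for mitochondrial proteins, fell from 14.4 ± 0.94 to 12.3 ± 0.48 CPM (-0.22 ± 0.07, adjusted p = 0.0457), without overlap. The factors of the ETS and YY1 cores searched in the promoters gave -0.03 for GABPA (adjusted p = 0.871), -0.20 for GABPB1 (0.238) and -0.08 for YY1 (0.301). MYC gave 0.0059 (0.951) and TFAM 0.01 (0.953).

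The 13 protein-coding genes of mitochondrial DNA, whose mRNAs this ribosome translates, had a median log2 fold change of 0.15, 12 above 0 and 0 called. Their median was 0.04 after the correction. Of 75 nuclear-encoded genes of oxidative phosphorylation 13 rose and 0 fell (median 0.17, and 0.10 after the correction), beside 7.62% and 7.80% of all rows. Among them were COX7A2L (0.44, adjusted p = 0.000176) and the ATP synthase subunit ATP5F1B (0.28, adjusted p = 0.0135). Of 83 cytosolic ribosomal proteins 0 were called in either direction, with 58 above 0 and a median of 0.03, and after the correction 0 rose and 7 fell (median -0.02), beside 14.5% and 14.9% of all rows. All lists come from the same libraries, and the difference between any of them and the members was not tested.

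**Figure D5:**
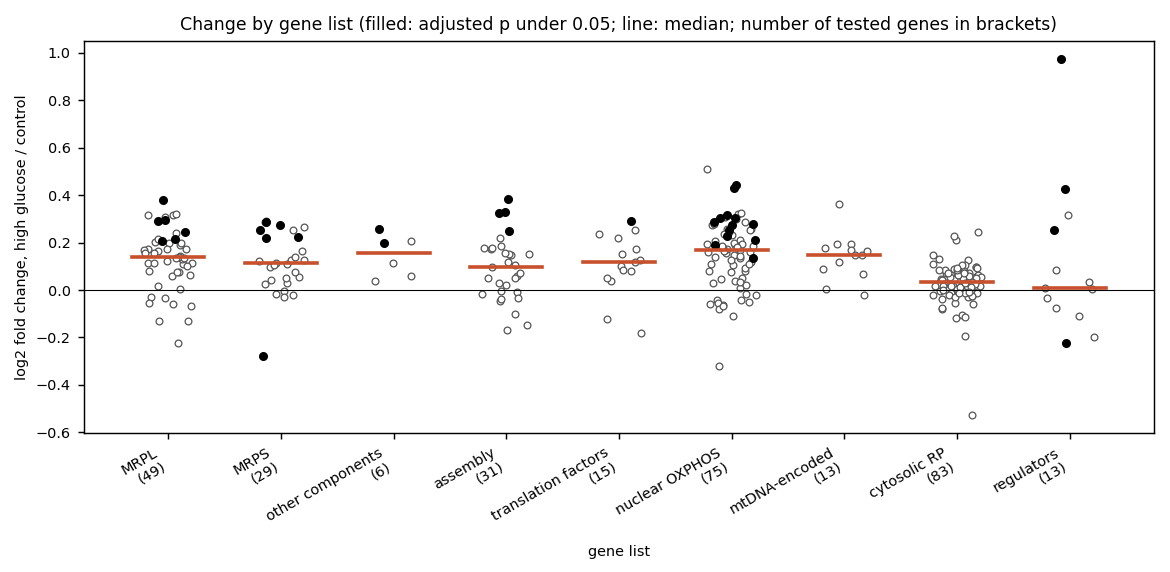
Log2 fold change (high glucose over control, n = 5 each) of each tested gene in the 2 subunits and 7 other lists, with filled points for an adjusted p under 0.05 and lines for list medians. Medians lie between 0.10 and 0.17 in the mitochondrial translation and oxidative phosphorylation lists, at 0.03 for cytosolic ribosomal proteins and at 0.01 for regulators, where PPARGC1A is the highest point.

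The mitochondrial ribosome combines conserved proteins, which sit where a bacterial protein does, with mitochondria-specific ones, a division made here after the values were seen and without a test. Of 45 conserved genes 33 were above 0 (median log2 fold change 0.12, 5 rose and 1 fell), beside 50.2% of all rows above 0, 7.62% called higher and 7.80% called lower. Of 32 mitochondria-specific genes 31 were above 0 (median 0.15, 6 rose and 0 fell), the exception being MRPS18A at -0.02, a paralogue of a conserved protein that sits elsewhere in the ribosome. After the correction 29 of 45 and 29 of 32 were above 0, beside 49.8% of all rows. Without HG_1 alone the medians were 0.05 (28 of 45 above 0) and 0.12 (28 of 32 above 0), and without MG_2 alone they were 0.17 and 0.20.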

How the data were processed

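RNA of ARPE-19 cells was sequenced from 5 control and 5 high glucose libraries. The submitters' processing notes name fastp 0.20.1, HISAT2 2.2.1 and GRCh38, and the counting program, annotation and strand setting are not given in the sources used here. The authors deposited raw read counts per gene and a table of FPKM values. Counts were filtered (filterByExpr), TMM-normalized and tested with the quasi-likelihood test of edgeR 4.0.16 in R 4.3.3, with Benjamini-Hochberg adjustment over 14936 rows and a threshold of 0.05. CPM are TMM-normalized. Corrected fits used lowess offsets (span 0.3) on GC content and length of GENCODE transcripts (13538 rows). Alternatives were DESeq2 1.42.0, limma 3.58.1 on log2(FPKM + 1 or 0.1), no filter, a minimum of 10 counts, scaling by RLE or by library size, and leaving out libraries. Steps were tested on simulated data. Named were all called genes, genes with set roles and the 3 highest and lowest in FPKM. Some further members and non-members were named after their values were seen. Members and lists were chosen with earlier results of these data known. Motif matches used exact letters on both strands.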

Additional observations from a re-analysis of the deposited data

Results flagged for a closer look

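In 16 of 80 groups of 5 libraries the highest or lowest library stood apart from the others by Dixon's test. Chance alone gives this for about 1 in 20 groups that are independent. These were not, because named genes and summaries over all members came from the same libraries, so the count was not set against chance. Of the 16, 14 were MG_2 or HG_1, the libraries whose levels rose with GC content and fell with transcript length. HG_1 was far above the other high glucose libraries for MRPL4 (72.9 CPM against at most 55.01), MRPL10 (53.5 against 39.3 to 42.6), MRPL12 (83.4 against 58.3 to 63.5), MRPS2 (62.8 against 45.1 to 47.9), MRPS7 (86.3 against 66.3 to 67.9) and MRPS18C (20.6 against 14.5 to 15.3). MG_2 was far above the other control libraries for MRPL51 (107 CPM against 86.3 to 90.7). Outside these libraries, HG_4 was the highest for MRPS27 (90.1 CPM against 85.7 to 86.6) and the lowest for MRPS36 (14.8 CPM against 17.2 to 17.9).

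The summed CPM of the large subunit was 2223 in MG_2 (1824 to 1930 in the other controls) and 2474 in HG_1 (1985 to 2079 in the others), and that of the small subunit was 1560 in HG_1 (1285 to 1360). The median centred log2 CPM of the large subunit was 0.17 in MG_2 (-0.14 to -0.07) and 0.30 in HG_1 (-0.03 to 0.03), and that of the small subunit was 0.27 in HG_1 (-0.02 to 0.04). After GC and length correction the large subunit median was 0.046 in MG_2 (-0.069 to -0.037).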

How the results depend on the processing

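Of the 12 called genes, 12 stayed past the threshold with RLE factors, library size alone, at least 10 counts, DESeq2 and without MG_2 and HG_1, 11 with no filter (MRPL49 lost) and 10 with limma on FPKM (MRPS22 and MRPS23 lost) and after GC and length correction (MRPL39 and MRPS23 lost). None of them changed sign in any alternative run. The number of genes higher was 21 without MG_2 and HG_1 and ranged from 6 (without MG_1 or MG_5) to 17 (without MG_2) when 1 library was left out, with 7 without MG_3 or HG_4, while the calls over all rows moved too (1138 higher with all libraries, 1986 without MG_2 and HG_1, 824 without MG_1 and 1264 without MG_2). There were 5 genes lower after GC and length correction. Without HG_1 the median of all members was 0.08. The small subunit median was 0.05 without HG_1, 0.07 without MG_1 and 0.18 without MG_2. Some uncalled genes changed sign. MRPL11, at 0.12 in the edgeR fit of all libraries, was -0.038 in the limma fits (-0.040 with a pseudocount of 0.1), where MRPL42 was -0.0035 (-0.0046 with 0.1) and MRPS18C 0.081 (0.087 with 0.1). MRPS12 was 0.0070 with library size alone and 0.000115 with no filter, MRPS18A 0.0072 without MG_2 and HG_1, and MRPS24 -0.036 after the correction. With 1 library left out, MRPL4 ranged from -0.042 to 0.13, MRPL12 from -0.13 to 0.075, MRPS12 from -0.13 to 0.12, MRPS18A from -0.10 to 0.095, MRPS18C from -0.13 to 0.019 and MRPS24 from -0.0395 to 0.093. The cause was not tested. No paired analysis was possible because the labels number the control libraries and letter the high glucose libraries. Every member had at least 110 counts in each library.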
